A study of Mus musculus with 24 samples.

Results

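The 31 genes described here make cholesterol in the liver, sense how much sterol a cell holds, or send sterol out of the cell. They were chosen by symbol: every probe set annotated to a listed symbol alone was taken, and each gene was read from the probe set with the highest mean over 24 arrays. Of the 31 symbols, 29 had such a probe set, among 18194 genes measured in all. They comprise 17 of 18 listed synthesis enzymes, 5 genes of sterol sensing and transfer, the nuclear receptor Nr1h3, and 6 genes of export, LXR response and plasma esterification. Acat2 and Nr1h2 had no probe set of their own, so their signals were not analysed here; they enter only the search of upstream sequences. Of the 29 genes, 12 had 1 probe set and 17 had several, 59 in all. Liver RNA came from male B6C3F1 mice, a hybrid laboratory strain, 7 to 10 weeks old on arrival. They were gavaged either with diethylhexyl phthalate (DEHP), a plasticizer known as a peroxisome proliferator in rodents, or with its vehicle, corn oil, alone. The 8 groups were corn oil and DEHP at 2, 8, 24 and 72 h, with 3 Affymetrix arrays in each. The labels give the DEHP dose as 1150 mg/kg at 2, 8 and 24 h and as 1150 mg/kg per day at 72 h, and the design text gives dosing every 24 h for 3 days in 10 ml/kg. That text speaks of 6 mice without tying them to arrays, so p-values here measure the spread between these arrays only.

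Cholesterol is built from acetyl-CoA through mevalonate and squalene to lanosterol, which further enzymes trim to cholesterol. When the endoplasmic reticulum holds little sterol, Scap escorts the membrane-bound factor SREBP-2, the product of Srebf2, to the Golgi, where it is cut and freed to switch on the synthesis genes. When sterol is plentiful, the Insig proteins hold Scap back and oxysterols activate LXR, which induces exporters such as Abca1, Abcg5 and Abcg8. In the liver this balance follows feeding and the time of day, and SREBP-2, LXR and the receptor PPAR-alpha, which phthalate metabolites can activate, each reach part of it.

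All values are log2 signals, so a difference of 1 is a doubling, and levels of different genes are not compared, since each probe set has its own brightness. A gene was called where the Benjamini-Hochberg adjusted p of limma's moderated test, over all 18194 genes, was under 0.05. The 7 measured hepatocyte markers, Alb and Ttr among them, averaged 13.95 to 14.14 on every array. The array of corn oil 8 h replicate 2 stood apart in the difference of the 3' and 5' Actb control probe sets, 1.46 against 0.50 to 0.82 on the others, and in its 18S control signal of 12.21. That of corn oil 72 h replicate 1 had the highest mean of neutrophil markers, 7.38, and markers of exocrine pancreas ranged from 7.16 to 10.89 over the arrays. In whole liver, fewer cells of a type and less RNA per cell cannot be told apart.

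Upstream sequences of Hmgcs1, Mvd, Lss and Sc5d are printed below because synthesis genes are classically controlled there, by SREBP-2 together with the CCAAT-binding factor NF-Y. That of Insig2, which was called between DEHP and corn oil, is printed as well, without stating this control for it. Hmgcs1 was called in no comparison given here. Abca1, Abcg5, Dhcr7, Hsd17b7, Lcat, Pmvk and Tm7sf2, which were called in some comparison, also have windows. These are not printed, apart from the bases between Abcg5 and Abcg8. RefSeq start sites on GRCm38.p6 gave 34 windows, each from 250 bases before a start to 50 bases after it, for 26 of the 31 genes; Fdps, Fdft1, Sqle, Abcg1 and Stard4 were not matched. Each stretch below is the part before the start site, read 5' to 3' along the gene's strand. Capitals mark the CCAAT box, as CCAAT or its complement ATTGG, and in Hmgcs1 also the sterol element TCACNCCAC. Hmgcs1 lies at chr13:119690101-119690350 on the plus strand, Mvd at chr8:122443423-122443672 on the minus strand, Lss at chr10:76531355-76531604 on the plus strand, Sc5d at chr9:42264301-42264550 on the minus strand, and the farthest upstream of 3 Insig2 starts at chr1:121332590-121332839 on the minus strand.
Hmgcs1: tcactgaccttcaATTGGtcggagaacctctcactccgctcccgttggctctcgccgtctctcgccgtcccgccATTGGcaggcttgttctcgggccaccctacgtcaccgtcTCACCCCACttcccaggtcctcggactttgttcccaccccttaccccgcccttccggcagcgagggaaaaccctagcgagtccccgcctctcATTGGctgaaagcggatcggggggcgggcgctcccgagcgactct
Mvd: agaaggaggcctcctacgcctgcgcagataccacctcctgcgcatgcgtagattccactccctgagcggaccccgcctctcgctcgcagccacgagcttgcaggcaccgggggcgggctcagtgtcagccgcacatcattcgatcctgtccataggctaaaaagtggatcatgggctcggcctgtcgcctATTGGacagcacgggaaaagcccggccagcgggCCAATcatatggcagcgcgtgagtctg
Lss: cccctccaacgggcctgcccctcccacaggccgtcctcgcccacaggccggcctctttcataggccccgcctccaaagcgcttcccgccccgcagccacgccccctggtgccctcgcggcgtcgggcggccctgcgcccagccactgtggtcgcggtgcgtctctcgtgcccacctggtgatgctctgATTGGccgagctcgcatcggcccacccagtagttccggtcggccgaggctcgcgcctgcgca
Sc5d: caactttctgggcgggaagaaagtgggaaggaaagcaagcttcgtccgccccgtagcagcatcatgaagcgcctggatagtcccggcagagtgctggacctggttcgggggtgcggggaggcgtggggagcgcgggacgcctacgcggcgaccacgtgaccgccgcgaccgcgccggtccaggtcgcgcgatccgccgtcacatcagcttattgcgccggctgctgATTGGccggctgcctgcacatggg
Insig2: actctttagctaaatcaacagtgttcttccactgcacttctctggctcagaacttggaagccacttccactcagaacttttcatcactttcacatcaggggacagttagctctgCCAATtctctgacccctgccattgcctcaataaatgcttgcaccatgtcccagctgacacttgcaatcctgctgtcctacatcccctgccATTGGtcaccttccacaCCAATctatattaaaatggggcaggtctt

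Searched on both strands of the full windows, the CCAAT box was present in 14 of the 15 synthesis genes with a window and in 14 of their 18 windows, 77.8%, against 37.4% of 32851 windows of all genes. For sterol sensing genes it was in 3 of 7 windows, and for export genes and LXR targets in 3 of 5. Of the 3 Insig2 windows only the one of the printed start held it. The one box of Abcg5 is also 1 of the boxes of Abcg8, since their windows share 209 bases, so those bases are counted for both genes. The sterol element TCACNCCAC was in the Hmgcs1 window alone, beginning at position -137 from the start, and in 1.24% of all windows. The LXR repeat, AGGTCA given again after any 4 bases, was in none of the 34 windows and in 0.0152% of all windows. A looser form made of AGNTCA was also in none and in 0.125% of all, and the PPAR repeat, AGGNCA given again after any 1 base, in none and in 0.381%. A match is a run of letters and not a measured site, and no match says only that these letters are not in these 300 bases. Abcg5, on the minus strand, and Abcg8, on the plus strand, encode both subunits of the sterol exporter and start 110 bases apart. The bases between their starts, chr17:84683012-84683120, hold none of the motifs searched and are printed because both genes are read outward from them.
Abcg5-Abcg8: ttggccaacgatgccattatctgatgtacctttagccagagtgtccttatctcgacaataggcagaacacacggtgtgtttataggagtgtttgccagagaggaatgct

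Across the 4 times, DEHP and corn oil differed at the threshold in 2 single comparisons: Insig2, a retention protein for Scap, rose at 8 h, and the exporter Abca1 fell at 72 h. At 2 h 0 of 29 genes were called, while 0.83% of all genes were; 11 of 29 had an unadjusted p under 0.05, against 8.43% of all genes. At 8 h the single call, 1 of 29, stood beside 4.13% of all genes, and 5 of 29 had an unadjusted p under 0.05, against 15.7% of all. At 24 h limma called 0 of 29, with 3 at an unadjusted p under 0.05 (8.13% of all genes), and 0.297% of all genes were called. At 72 h 1 of 29 was called beside 4.18% of all genes, and 4 had an unadjusted p under 0.05, against 21.6% of all. A test for a difference at any of the 4 times called Insig2 (adjusted p = 0.00215) and Stard4 (adjusted p = 0.0288), 2 of 29, against 6.46% of all genes. The Insig2 call held in all 35 alternative fits. That of Stard4 was lost in 6 of 35: without corn oil 2 h replicate 2 or 3 (adjusted p = 0.0504 and 0.0738), without DEHP 2 h replicate 1 or 3 (adjusted p = 0.0748 and 0.0546), without DEHP 8 h replicate 1 (adjusted p = 0.0548) and after averaging a gene's probe sets (adjusted p = 0.112).

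**Figure D1:**
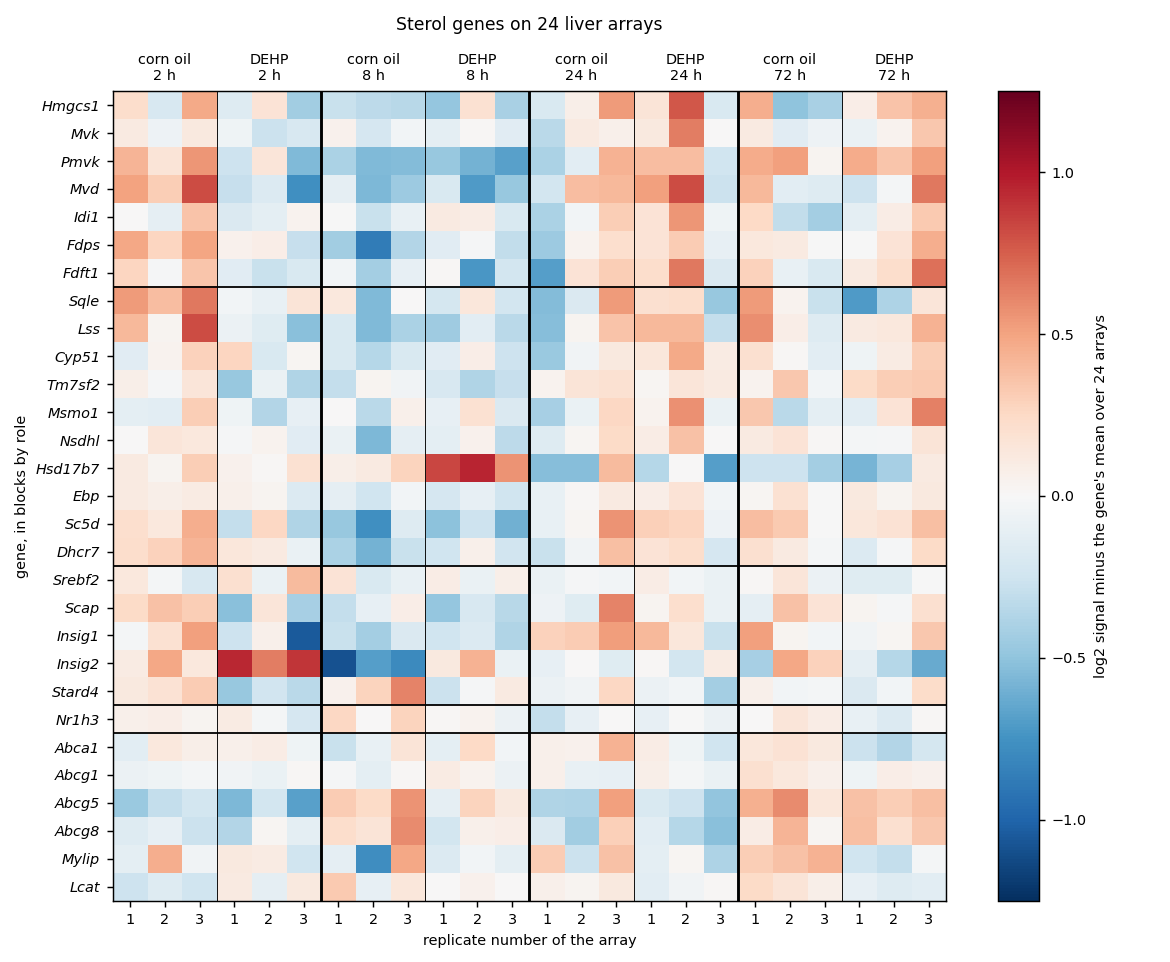
Log2 signal of the 29 genes on each of the 24 arrays, minus the gene's own mean over all arrays; columns are arrays by group and replicate number, rows are genes in blocks by role. Insig2 is high on the 3 DEHP arrays at 2 h and low on the 3 corn oil arrays at 8 h, Hsd17b7 is high on the 3 DEHP arrays at 8 h, and many synthesis enzymes are low on the corn oil arrays at 8 h.

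**Figure D2:**
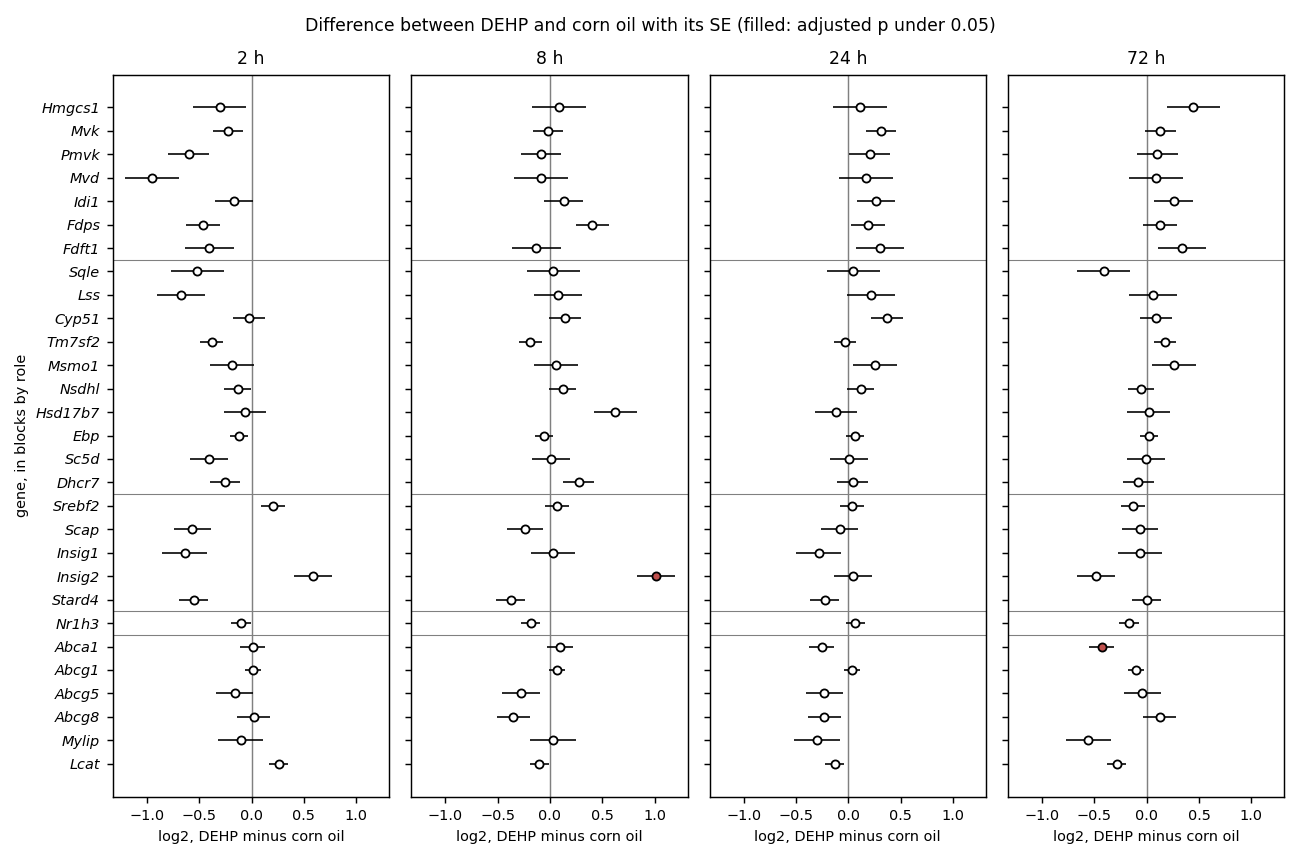
Log2 difference between DEHP and corn oil for each gene at each time, with its SE from limma (3 arrays a group). All 17 synthesis enzymes lie below 0 at 2 h with open symbols; the 2 filled symbols are Insig2 at 8 h and Abca1 at 72 h.

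In the mevalonate part, which runs from Hmgcs1 to squalene, all 7 measured enzymes were below 0 at 2 h, with a median log2 difference of -0.40 against -0.02 over all genes, and none was called. At the same time 8 of 8 stellate cell markers were below 0, at a mean signal of 8.56 to 8.66 in corn oil and 8.19 to 8.50 under DEHP. All 3 neutrophil markers were above 0, at 5.99 to 6.03 against 6.11 to 6.80, and 7 of 7 hepatocyte markers were below 0 with a median of -0.05. None of these markers was called, and their part in the synthesis values was not tested. The largest difference among the mevalonate enzymes was that of Mvd, the decarboxylase that makes isopentenyl diphosphate: it read 9.20, 9.0 and 9.52 in corn oil and 8.41, 8.53 and 7.94 under DEHP. Every DEHP array lay below every corn oil array, and the difference of -0.95 (SE 0.26) had a limma adjusted p of 0.109; with the 6 arrays of that time alone its adjusted p was 0.0378. Pmvk (-0.60, adjusted p = 0.247), Fdps (-0.46, adjusted p = 0.305) and Fdft1 (-0.40, adjusted p = 0.699) also had all DEHP arrays below all corn oil arrays, while Hmgcs1 (-0.30), Mvk (-0.23) and Idi1 (-0.17) overlapped. Hmgcs1, which makes the precursor of mevalonate, read 13.14, 12.71 and 13.39 in corn oil and 12.76, 13.09 and 12.48 under DEHP. Idi1, the isomerase that follows Mvd, read 11.96, 11.85 and 12.31 against 11.77, 11.84 and 12.

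At 8 h the 7 enzymes lay on both sides of 0, from -0.13 to 0.41, with none called. These signs depend on the probe set. Mvd stood at -0.08 on its brightest and 0.19 on its other probe set, and Mvk at -0.02 and 0.13. Fdft1 stood at -0.13 on its brightest probe set and at 0.01 and -0.01 on its dimmest ones. On its next brightest it stood at -0.40 with every DEHP array lower, as for 13.1% of all genes. Fdps, which joins isoprene units into farnesyl diphosphate, had the largest difference, 0.41 (SE 0.16, limma adjusted p = 0.188). It read 12.35, 11.91 and 12.42 in corn oil and 12.64, 12.77 and 12.48 under DEHP, so the groups did not overlap. The low corn oil value of 11.91 was that of replicate 2, the array with the large Actb difference, and without it the difference was 0.25. On its brightest probe set Hmgcs1 overlapped fully, at 12.64, 12.59 and 12.56 in corn oil and 12.43, 13.10 and 12.51 under DEHP. On its other probe sets, which differed by 0.14, 0.21, 0.51 and 0.20, every DEHP array lay above every corn oil array. Over all genes, 5.44% had DEHP higher in this way. The last of these probe sets was dim, at a mean of 4.48 in corn oil. Idi1 read 11.95, 11.68 and 11.86 against 12.07, 12.05 and 11.76, again overlapping.

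At 24 and 72 h all 7 enzymes were above 0, between 0.11 and 0.31 at 24 h and between 0.09 and 0.45 at 72 h, and none was called. The largest at 24 h was Mvk, mevalonate kinase (0.31, SE 0.14, limma adjusted p = 0.603). It read 8.66, 9.11 and 9.06 in corn oil and 9.12, 9.64 and 9.0 under DEHP, which overlap, and leaving out 1 array moved the difference between 0.12 (DEHP replicate 2) and 0.44 (DEHP replicate 3). The mevalonate median at 24 h moved between 0.00 (corn oil replicate 1 left out) and 0.41 (DEHP replicate 3 left out). Without DEHP 24 h replicate 2 Hmgcs1 stood at -0.15 and Mvd at -0.06, so the 7 of 7 above 0 at 24 h rests on single arrays. That at 72 h does too: leaving out 1 array moved Mvd between -0.18 and 0.28 and Pmvk between -0.05 and 0.19. The largest at 72 h was Hmgcs1 (0.45, SE 0.26, adjusted p = 0.321), at 13.37, 12.41 and 12.51 in corn oil and 12.99, 13.27 and 13.36 under DEHP. Corn oil replicate 1 was the highest of the 6 arrays and the other two corn oil arrays lay below every DEHP array; the difference was 0.75 without corn oil replicate 1 and 0.27 without replicate 2. Idi1 overlapped at both times: 11.56, 11.92 and 12.26 against 12.12, 12.51 and 11.91 at 24 h, and 12.20, 11.65 and 11.53 against 11.83, 12.05 and 12.28 at 72 h. Hmgcs1 at 24 h read 12.72, 12.99 and 13.44 in corn oil and 13.07, 13.69 and 12.73 under DEHP.

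The sterol part, from squalene to cholesterol, had 10 of 10 enzymes below 0 at 2 h (median -0.22), while at 8 h 8 of 10, at 24 h 8 of 10 and at 72 h 6 of 10 were above 0, with no call at any time. Over both parts, 9 of 17 enzymes had all DEHP arrays below all corn oil arrays at 2 h, and none had them all above. Over the 29 genes this held for 11, and 6.72% of all genes had DEHP lower in this way. Of all genes, 56.8% were below 0 at 2 h, 57.4% at 8 h, 51.1% at 24 h and 57.7% at 72 h. The largest difference at 2 h was that of Lss, which closes the ring of lanosterol (-0.67, SE 0.23, limma adjusted p = 0.288). It read 10.58, 10.21 and 10.99 in corn oil and 10.10, 10.02 and 9.65 under DEHP, without overlap. Sqle, the epoxidase that commits squalene to sterol, read 11.49, 11.35 and 11.62 against 10.93, 10.87 and 11.12, also without overlap (-0.52, adjusted p = 0.601). Tm7sf2 (-0.38, adjusted p = 0.121), Dhcr7 (-0.26, adjusted p = 0.700) and Ebp (-0.12, adjusted p = 0.791) had no overlap either, and Sc5d (-0.41, adjusted p = 0.530) did. Tm7sf2, a sterol reductase, passed the threshold without DEHP 2 h replicate 2 (-0.50, adjusted p = 0.0218). Cyp51, which removes a methyl group from lanosterol, had the smallest difference, -0.03, and stood at 0.09 without DEHP 2 h replicate 2 and 0.08 without corn oil 2 h replicate 3. Hsd17b7 was at -0.07 on its brightest probe set but at 0.11, 0.10 and 0.07 on its other 3, so the count of 10 below 0 depends on the probe set and arrays used. The counts at later times depend on the probe set too. Lss stood at 0.08, 0.22 and 0.06 at 8, 24 and 72 h on its brightest probe set. On the next it stood at -0.27, -0.55 and -0.38, and on the dimmest at 0.01, -0.13 and -0.01.

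At 8 h Hsd17b7, a reductase of the demethylation steps, stood at 0.63 (SE 0.20, limma adjusted p = 0.0881). It read 9.91, 9.95 and 10.11 in corn oil and 10.67, 10.78 and 10.40 under DEHP, and every DEHP array was above every corn oil array. Its other probe sets differed by 1.03, 0.91 and 0.07, and the gene was called after averaging its probe sets (0.66, adjusted p = 0.0126), with quantile normalization (0.71, adjusted p = 0.0232) and with the 6 arrays alone (0.63, adjusted p = 0.0264). Dhcr7, the last reductase, also had no overlap at 8 h (0.28, adjusted p = 0.392), so 3 of 17 synthesis enzymes had all DEHP arrays higher, where 5.44% of all genes did. Sqle overlapped, at 11.09, 10.41 and 10.97 in corn oil and 10.74, 11.10 and 10.73 under DEHP.

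At the later times the sterol enzymes overlapped between groups. The largest at 24 h was Cyp51 (0.37, SE 0.15, limma adjusted p = 0.541), which read 9.82, 10.25 and 10.41 in corn oil and 10.43, 10.76 and 10.39 under DEHP; without corn oil replicate 1 the difference was 0.20. Sqle at 24 h read 10.42, 10.78 and 11.49 against 11.16, 11.19 and 10.49. At 72 h the largest was Sqle, at -0.41 (SE 0.25, adjusted p = 0.361), which moved to -0.20 when corn oil replicate 1 was left out and to -0.65 when DEHP replicate 3 was. It read 11.49, 11.01 and 10.69 in corn oil and 10.26, 10.58 and 11.12 under DEHP, and its highest DEHP array lay above the middle corn oil array. The other members, Msmo1, Nsdhl, Ebp, Tm7sf2, Sc5d, Dhcr7, Lss and Hsd17b7, lay between -0.08 and 0.26 at 72 h.

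Synthesis enzymes also differed between sampling times within the vehicle group. From 2 to 8 h in corn oil 6 of 17 enzymes fell, where 1.09% of all genes did, and 16 of 17 were below 0 with a median of -0.38, against 48.1% below 0 and a median of 0.01 over all genes; 9 of all 29 genes were called where 4.06% of all genes were. Fdps went from 13.27, 13.05 and 13.28 to 12.35, 11.91 and 12.42, a fall of 0.98 on the log2 scale (SE 0.16, limma adjusted p = 0.000949). Dhcr7 went from 11.41, 11.48 and 11.61 to 10.80, 10.60 and 10.91 and fell by 0.73 (SE 0.15, adjusted p = 0.005). Pmvk, the second kinase of mevalonate, fell by 0.88 (adjusted p = 0.0104), Sc5d, a late desaturase, by 0.74 (adjusted p = 0.0212), Mvd by 0.92 (adjusted p = 0.0454) and Lss by 0.80 (adjusted p = 0.0495). In these 6 genes every corn oil array at 2 h was above every corn oil array at 8 h. They were called from the same values, so this separation adds no support, and its share over all genes is not given. Corn oil 8 h replicate 2, the array with the large Actb difference, was the lowest of its group for 14 of 17 enzymes. A test over all times in corn oil called 7 of 29 genes, beside 3.55% of all genes: Pmvk, Fdps, Sc5d, Dhcr7, Insig2, Abcg5 and Lcat. Under DEHP the same interval gave a median of -0.09 and no synthesis enzyme was called, with 1 at an unadjusted p under 0.05, against 12.1% of all genes. The test of whether the change from 2 to 8 h differed between DEHP and corn oil called 0 of 17 enzymes in limma, with 5 at an unadjusted p under 0.05, beside 0.418% and 10.1% of all genes.

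Of these 6 falls, those of Fdps and Dhcr7 passed in all 6 fits that each left out 1 array of the 2 groups. Pmvk missed the threshold without corn oil 2 h replicate 1 (-0.85, limma adjusted p = 0.0504) or replicate 3 (-0.79, adjusted p = 0.0523). Sc5d missed it without corn oil 2 h replicate 1 (-0.76, adjusted p = 0.0633) or 3 (-0.64, adjusted p = 0.0977) and without corn oil 8 h replicate 1 (-0.73, adjusted p = 0.0560) or 2 (-0.58, adjusted p = 0.144). Mvd missed it without any of corn oil 2 h replicates 1, 2 and 3 (-0.94, -1.04 and -0.78; adjusted p = 0.128, 0.0502 and 0.163) or 8 h replicates 2 and 3 (-0.83 and -0.88; adjusted p = 0.184 and 0.113). Lss missed it without corn oil 2 h replicates 1 and 3 (-0.81 and -0.60; adjusted p = 0.142 and 0.214) or 8 h replicates 1, 2 and 3 (-0.90, -0.71 and -0.79; adjusted p = 0.0593, 0.199 and 0.107). With the Actb difference as a covariate the count over all 29 genes was 2 in place of 9, Insig2 and Lcat; without the 2 arrays that stood apart it was 5.

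From 8 to 24 h, 4 enzymes changed under DEHP and no enzyme was called in corn oil. The test of whether this change differed between the groups called 0 of 17 in limma, with 1 at an unadjusted p under 0.05, where 0.467% of all genes were called. Under DEHP, Pmvk rose by 0.76 (SE 0.19, limma adjusted p = 0.0197), Sc5d by 0.63 (SE 0.18, adjusted p = 0.0425) and Tm7sf2 by 0.39 (SE 0.11, adjusted p = 0.0314), while Hsd17b7 fell by 1.13 (SE 0.20, adjusted p = 0.000779). These 4 of 29 calls stood beside 5.55% of all genes, and 16 of 17 enzymes were above 0 with a median of 0.34 (all genes -0.01, with 52.2% below 0). Hsd17b7 went from 10.67, 10.78 and 10.40 to 9.48, 9.83 and 9.15, with no overlap. In corn oil 16 of 17 were also above 0, with a median of 0.23 and no synthesis enzyme called (7 at an unadjusted p under 0.05, beside 13.3% of all genes, of which 59.5% were below 0). Insig2 made up the 1 call of 29, beside 2.57% of all genes. The Hsd17b7 call held without each of the 6 arrays in turn. Pmvk was lost without DEHP 8 h replicate 2 or 3 (0.75 and 0.71; adjusted p = 0.0531 and 0.0839) and without DEHP 24 h replicate 1 or 2 (0.65 each; adjusted p = 0.115 and 0.116). Sc5d was lost without DEHP 8 h replicate 1 or 3 (0.60 and 0.55; adjusted p = 0.136 and 0.172) and without DEHP 24 h replicate 1 or 2 (0.56 and 0.58; adjusted p = 0.168 and 0.158). Tm7sf2 was lost without DEHP 8 h replicate 2 or 3 (0.34 and 0.39; adjusted p = 0.121 and 0.0858) and without DEHP 24 h replicate 1, 2 or 3 (0.42, 0.36 and 0.38; adjusted p = 0.0545, 0.125 and 0.0921). From 24 to 72 h limma called 0 of 29 genes in either group, with 3 in corn oil and 2 under DEHP at an unadjusted p under 0.05, where 0.011% and 0.264% of all genes were called and 8.68% and 7% had such a p.

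**Figure D3:**
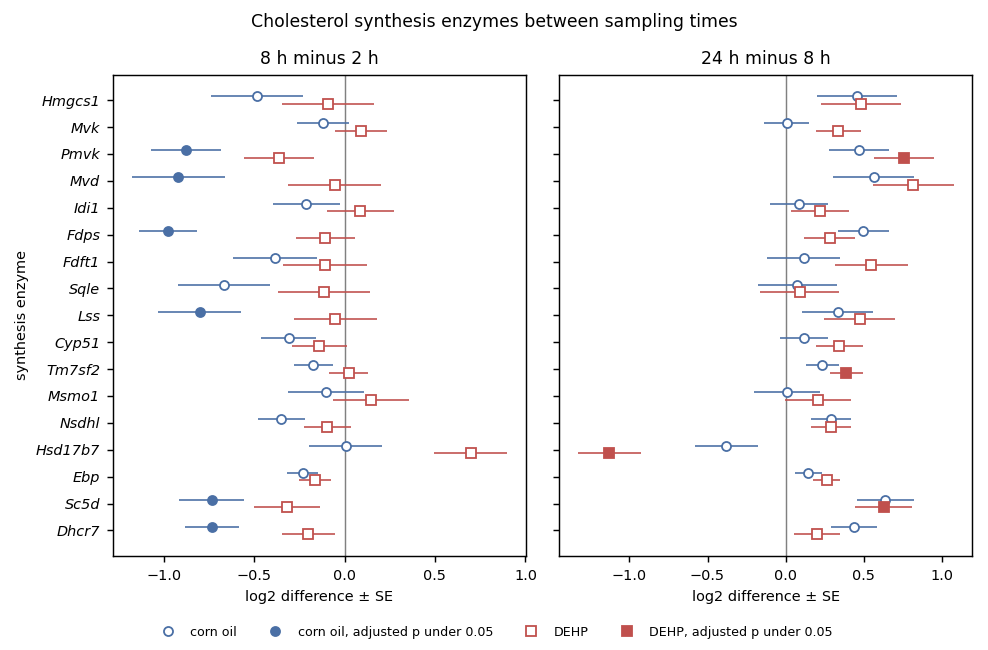
Log2 difference between successive sampling times for the 17 synthesis enzymes, with its SE, in corn oil (circles) and under DEHP (squares). From 2 to 8 h, 6 corn oil symbols are filled and lie between -0.98 and -0.73, while the DEHP differences have a median of -0.09; from 8 to 24 h 16 of 17 enzymes are above 0 in both groups.

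Among the 5 sensing genes, Insig2 was the one called between DEHP and corn oil. At 8 h it read 10.57, 10.97 and 10.86 in corn oil (10.80 ± 0.20, SD, n = 3) and 11.78, 12.09 and 11.57 under DEHP (11.81 ± 0.26, SD, n = 3). All DEHP arrays were above all corn oil arrays, and Insig2 rose 2.02-fold, by 1.01 on the log2 scale (SE 0.18, limma adjusted p = 0.00186), in a comparison where 1.28% of all genes were called higher. Its other 2 probe sets differed by 1.31 and 1.27, and the call held in all 18 alternatives, between 0.87 and 1.20, those without corn oil 8 h replicate 2 included. At 2 h Insig2 read 11.76, 12.14 and 11.79 in corn oil and 12.60, 12.30 and 12.55 under DEHP, again without overlap, as for 4.67% of all genes with DEHP higher, but the difference of 0.59 (SE 0.18) had an adjusted p of 0.212. At 24 h the groups overlapped, at 11.55, 11.67 and 11.51 against 11.68, 11.42 and 11.77 (0.05, adjusted p = 0.967). At 72 h the values were 11.24, 12.14 and 11.95 in corn oil and 11.54, 11.31 and 11.03 under DEHP, a difference of -0.48 (SE 0.18, adjusted p = 0.130). Corn oil 72 h replicate 1, the array with the high neutrophil markers, was the lowest of its group, and without it Insig2 was called lower at 72 h (-0.75, adjusted p = 0.0116).

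The size of the DEHP difference in Insig2 varied between sampling times. The test over successive times called it (limma adjusted p = 0.00911), the 1 call of 29 beside 2.08% of all genes, and in all 35 alternatives. The labels give the dose per day at 72 h only, so in contrasts with 72 h time and repeated dosing cannot be told apart. Between 8 and 72 h, a contrast added after the values were seen, the difference changed by -1.50 (SE 0.26, adjusted p = 0.00307), where 1.41% of all genes were called, and this call held without each of the 12 arrays in turn. Between 2 and 72 h it changed by -1.07 (SE 0.26, adjusted p = 0.0291), a call lost in 8 of 12 such fits: at -1.0 and -1.02 without corn oil 2 h replicate 1 or 3, -1.02 and -1.04 without DEHP 2 h replicate 1 or 3, -0.89 and -0.99 without corn oil 72 h replicate 2 or 3, and -1.08 and -0.94 without DEHP 72 h replicate 2 or 3 (adjusted p from 0.0571 to 0.0963). Insig2 also fell between 2 and 8 h in both groups, by 1.09 in corn oil (adjusted p = 0.00108) and by 0.67 under DEHP (adjusted p = 0.0392), and rose by 0.77 from 8 to 24 h in corn oil (adjusted p = 0.0223). The fall in corn oil held without each of the 6 arrays. That under DEHP, the 1 call of 29 where 4% of all genes were called, was lost without DEHP 2 h replicate 1 or 3 (-0.61 and -0.64; adjusted p = 0.161 and 0.129) and without DEHP 8 h replicate 1 or 3 (-0.65 and -0.55; adjusted p = 0.139 and 0.226). The rise in corn oil was lost without corn oil 8 h replicate 1 or 3 (0.66 and 0.81; adjusted p = 0.109 and 0.051) and without corn oil 24 h replicate 1 or 2 (0.79 and 0.73; adjusted p = 0.0804 and 0.0827).

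**Figure D4:**
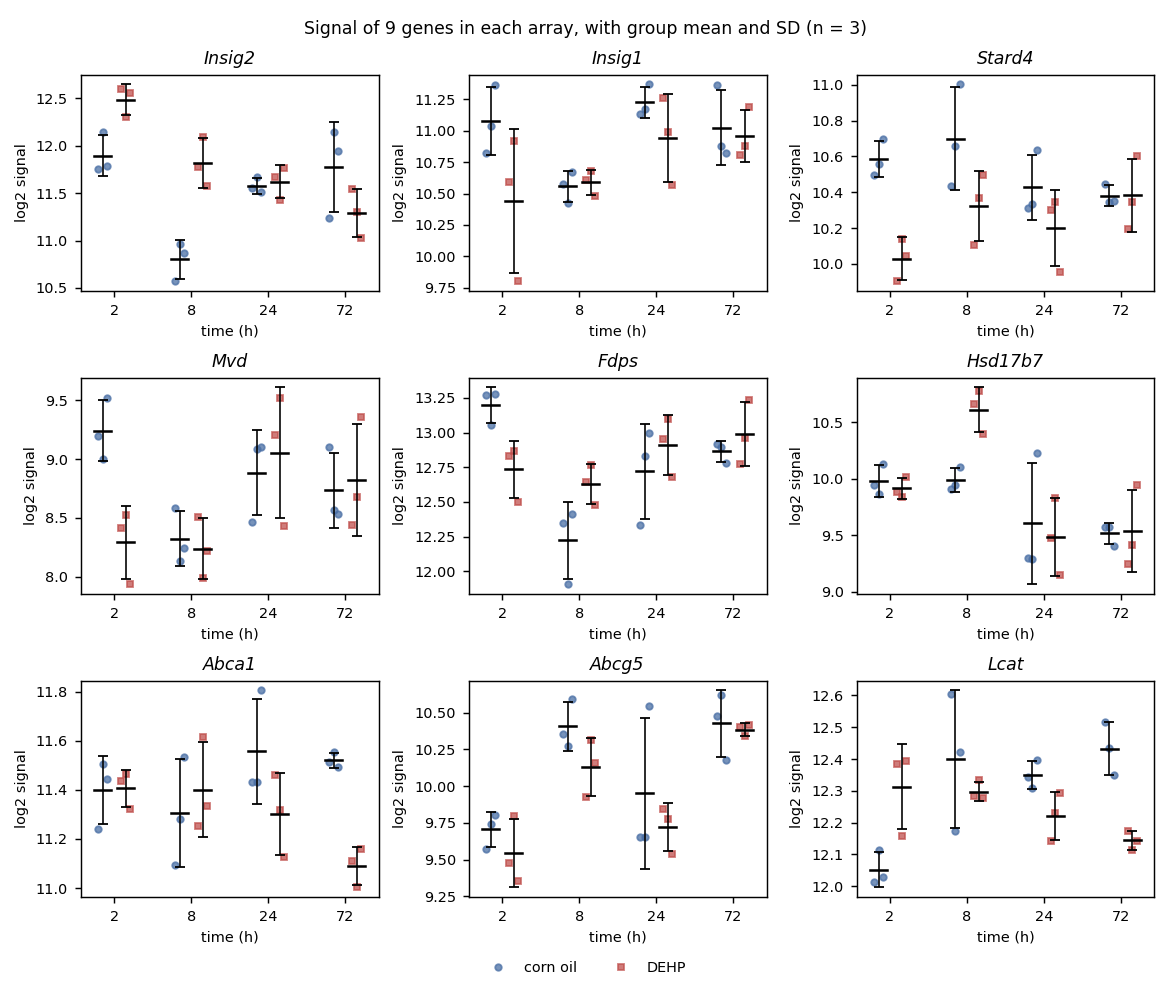
Log2 signal of 9 genes on each array against time, corn oil as circles and DEHP as squares, with the group mean (long bar) and SD (n = 3); each panel has its own axis. Insig2 at 8 h and Hsd17b7 at 8 h have every DEHP array above every corn oil array, and Abca1 at 72 h has every DEHP array below.

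Insig1, the close relative of Insig2 that is itself induced by SREBP-2, was on the other side of 0 at 2 h. It read 10.82, 11.04 and 11.37 in corn oil and 10.59, 10.92 and 9.80 under DEHP, a difference of -0.64 (SE 0.21, limma adjusted p = 0.267). The lowest value, 9.80, was that of DEHP replicate 3, and replicate 2 lay within the corn oil range; without DEHP 2 h replicate 3 the difference was -0.32, and without DEHP 2 h replicate 2 Insig1 was called lower (-0.88, adjusted p = 0.0405). At 8 h the groups were interleaved, at 10.58, 10.43 and 10.67 against 10.61, 10.68 and 10.48. At 24 h Insig1 read 11.14, 11.17 and 11.37 in corn oil and 11.26, 10.99 and 10.57 under DEHP (-0.28, adjusted p = 0.757). At 72 h it read 11.37, 10.88 and 10.82 against 10.80, 10.88 and 11.19 (-0.06). The Insig1 groups overlapped at all 4 times.

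Srebf2, the gene of SREBP-2 itself, ranged from 9.03 to 9.63 over all arrays. It read 9.36, 9.21 and 9.03 in corn oil and 9.43, 9.14 and 9.63 under DEHP at 2 h, and 9.40, 9.03 and 9.14 against 9.32, 9.14 and 9.30 at 8 h. At 24 h it read 9.15, 9.21 and 9.19 against 9.32, 9.20 and 9.14, and at 72 h 9.24, 9.38 and 9.16 against 9.07, 9.08 and 9.22. The groups overlapped at each time, and the differences were 0.20, 0.06, 0.04 and -0.13, with 95% intervals of -0.03 to 0.44 at 2 h and -0.37 to 0.10 at 72 h.

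Stard4, a carrier that moves cholesterol between membranes, read 10.50, 10.56 and 10.70 in corn oil and 9.90, 10.14 and 10.05 under DEHP at 2 h. The groups did not overlap, and the difference of -0.55 (SE 0.14) had a limma adjusted p of 0.0662. It passed with the replicate number as a block (adjusted p = 0.0412), with replicate 1 against the rest as a block (adjusted p = 0.0363), over genes above the 40th percentile (adjusted p = 0.0487) and without the 2 arrays that share a number in their titles (adjusted p = 0.0430). Its difference was -0.38 at 8 h, -0.23 at 24 h and 0.00 at 72 h. Scap was lower on all 3 DEHP arrays at 2 h, at 10.58, 11.25 and 10.69 against 11.34, 11.47 and 11.41 (-0.57, SE 0.18, adjusted p = 0.207), and was called without DEHP 2 h replicate 2 (-0.77, adjusted p = 0.0259).

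Nr1h3, the LXR-alpha receptor, was not called at any time. It read 9.47, 9.49 and 9.44 in corn oil and 9.51, 9.38 and 9.20 under DEHP at 2 h, and 9.67, 9.41 and 9.69 against 9.43, 9.45 and 9.33 at 8 h. At 24 h it read 9.11, 9.30 and 9.42 against 9.30, 9.40 and 9.33, and at 72 h 9.41, 9.56 and 9.50 against 9.31, 9.23 and 9.42. The differences were -0.10, -0.19, 0.07 and -0.17, and the groups overlapped at each time.

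Abca1, which loads cholesterol onto apolipoprotein A-I, read 11.51, 11.55 and 11.50 in corn oil at 72 h (11.52 ± 0.03, SD, n = 3) and 11.11, 11 and 11.16 under DEHP (11.09 ± 0.08, SD, n = 3). All DEHP arrays were below all corn oil arrays, as for 18.1% of all genes at that time, and Abca1 fell by 0.43 on the log2 scale (SE 0.12, limma adjusted p = 0.0455), in a comparison where 3.05% of all genes were called lower. The call was lost without each of the 6 arrays in turn, at -0.44, -0.41 and -0.44 without corn oil 72 h replicates 1, 2 and 3 and -0.44, -0.39 and -0.47 without DEHP 72 h replicates 1, 2 and 3 (adjusted p = 0.0657, 0.145, 0.107, 0.0810, 0.171 and 0.0928). Its 2 dimmer probe sets differed by -0.57 and -0.84 at 72 h. Macrophages also carry Abca1, and the 12 markers of Kupffer cells and macrophages were all below 0 at 72 h, 6 of them called lower; their mean signal was 8.78 to 9.25 on the corn oil arrays and 8.22 to 8.56 on the DEHP arrays. The 8 sinusoidal endothelium markers were also all below 0, none called, at 8.64 to 8.95 against 8.25 to 8.47. Their part in the Abca1 result was not tested. At 2 h Abca1 read 11.24, 11.51 and 11.45 against 11.43, 11.47 and 11.32, and at 8 h 11.10, 11.28 and 11.53 against 11.25, 11.62 and 11.34, both overlapping. At 8 h its 2 dimmer probe sets differed by 0.77 and 1.13 where the brightest differed by 0.10. Corn oil 8 h replicate 2, the array with the large Actb difference, was the lowest on both dimmer probe sets, at 7.97 and 6.27, and without it, a choice made after seeing the data, they differed by 0.30 and 0.57. At 24 h it read 11.43, 11.43 and 11.81 against 11.46, 11.32 and 11.13 (-0.26, adjusted p = 0.611).

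Abcg5 and Abcg8, whose products together pump sterols into bile, were not called between DEHP and corn oil. Abcg5 read 9.57, 9.74 and 9.80 in corn oil and 9.47, 9.80 and 9.36 under DEHP at 2 h, and 10.36, 10.27 and 10.59 against 9.93, 10.31 and 10.15 at 8 h. Abcg8 read 9.52, 9.58 and 9.42 against 9.31, 9.70 and 9.56 at 2 h, and 9.90, 9.84 and 10.27 against 9.45, 9.74 and 9.76 at 8 h. At 8 h Abcg8 was the one export gene with all DEHP arrays lower (-0.35, SE 0.16, limma adjusted p = 0.269; -0.21 without corn oil replicate 3), where 13.1% of all genes were, and Abcg5 stood at -0.28 with overlap. At 24 h Abcg5 read 9.65, 9.65 and 10.55 against 9.85, 9.78 and 9.54, and Abcg8 9.50, 9.25 and 9.98 against 9.55, 9.33 and 9.15. At 72 h Abcg5 read 10.48, 10.62 and 10.18 against 10.40, 10.34 and 10.41, and Abcg8 9.77, 10.10 and 9.71 against 10.05, 9.88 and 10.01. The corn oil array of 24 h replicate 3 was the highest of its group for both genes. From 2 to 8 h in corn oil Abcg5 rose by 0.70 (SE 0.18, adjusted p = 0.0253). That call was lost without corn oil 2 h replicate 1 or 2 (0.64 and 0.72; adjusted p = 0.130 and 0.0542) and without corn oil 8 h replicate 1 or 3 (0.73 and 0.61; adjusted p = 0.0527 and 0.101).

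Mylip and Abcg1 complete the export genes and LXR targets. Mylip, an LXR-induced ubiquitin ligase, read 8.87, 8.93 and 9.0 in corn oil and 8.31, 8.27 and 8.53 under DEHP at 72 h. Every DEHP array was lower, as for 18.1% of all genes at that time. The Mylip difference was -0.56 (SE 0.22, limma adjusted p = 0.138), called with the 6 arrays of the time alone (adjusted p = 0.0206). Mylip also had the largest difference of the export genes at 24 h, at 8.88, 8.29 and 8.93 against 8.44, 8.58 and 8.18 (-0.30, limma adjusted p = 0.746), with overlap. Abcg1, an exporter to high-density lipoprotein, lay between -0.11 and 0.07 at all 4 times.

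Lcat, the enzyme that esterifies cholesterol in plasma, was on opposite sides of corn oil at the first and last time. At 2 h it read 12.01, 12.12 and 12.03 in corn oil and 12.39, 12.16 and 12.39 under DEHP (0.26, SE 0.09, limma adjusted p = 0.311). Every DEHP array was higher, as for 4.67% of all genes. At 72 h Lcat read 12.52, 12.43 and 12.35 against 12.17, 12.12 and 12.14, with every DEHP array lower, as for 18.1% of all genes. The difference was -0.29 (SE 0.09, limma adjusted p = 0.0728, and 0.0321 with array weights). Time and repeated dosing cannot be told apart between these 2 times. The limma test of the difference between them called Lcat, at -0.55 (SE 0.13, adjusted p = 0.0251), where 2.34% of all genes were called. That call was lost without corn oil 2 h replicate 1 or 3 (-0.53 and -0.54), DEHP 2 h replicate 1 or 3 (-0.51 each), corn oil 72 h replicate 1 (-0.51) or DEHP 72 h replicate 2 or 3 (-0.54 and -0.55), with adjusted p from 0.0522 to 0.0826. At 24 h the DEHP arrays were also all lower (-0.13, adjusted p = 0.737), as for 7.47% of all genes. From 2 to 8 h in corn oil Lcat rose by 0.35 (adjusted p = 0.0315). That rise was lost without corn oil 2 h replicate 1 or 3 (0.33 each; adjusted p = 0.130 and 0.0913) and without corn oil 8 h replicate 1 or 3 (0.24 and 0.34; adjusted p = 0.179 and 0.0819).

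Side by side, synthesis enzymes had median DEHP differences of -0.30, 0.06, 0.17 and 0.09 at 2, 8, 24 and 72 h, and the 5 export genes and LXR targets 0.01, 0.03, -0.23 and -0.11, while all genes had -0.02, -0.02, 0.00 and -0.03. Leaving out 1 array at a time moved the synthesis median between -0.42 and -0.20 at 2 h, -0.07 and 0.11 at 8 h, 0.00 and 0.33 at 24 h, and -0.01 and 0.18 at 72 h. The export median moved between -0.07 and 0.06, -0.29 and 0.09, -0.38 and -0.03, and -0.16 and -0.06. At 8 h both were lowest without corn oil replicate 2 (-0.07 and -0.29), and at 24 h synthesis was at 0.00 without corn oil replicate 1 and export at -0.03 without corn oil replicate 3. Averaged relative to each gene's mean over 24 arrays, the 17 enzymes stood at 0.20, 0.08 and 0.40 on the corn oil arrays of 2 h and at -0.09, -0.05 and -0.22 on the DEHP arrays, without overlap. At 8 h they stood at -0.16, -0.41 and -0.17 in corn oil and -0.16, -0.07 and -0.27 under DEHP, all below 0 and interleaved. At 24 h the groups overlapped across wide ranges, at -0.34, 0.00 and 0.32 in corn oil and 0.17, 0.41 and -0.16 under DEHP. At 72 h they stood at 0.25, 0.01 and -0.14 against -0.05, 0.08 and 0.37. This spread was shared by the enzymes, since at 24 h corn oil replicate 1 was the lowest of its group for 16 of 17 and replicate 3 the highest for 16, and under DEHP replicate 3 was the lowest for 16 and replicate 2 the highest for 16. The 17 enzymes of an array share their source and are not replicates of a condition. The 5 export genes stood at 0.24, 0.34 and 0.16 in corn oil at 72 h and at 0.03, -0.01 and 0.10 under DEHP, without overlap. At 2, 8 and 24 h the groups overlapped. Of single genes, 18.1% of all had every DEHP array lower at 72 h. Among the 5, Abca1 and Mylip did, while Abcg1 (-0.11), Abcg5 (-0.04) and Abcg8 (0.12) overlapped.

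**Figure D5:**
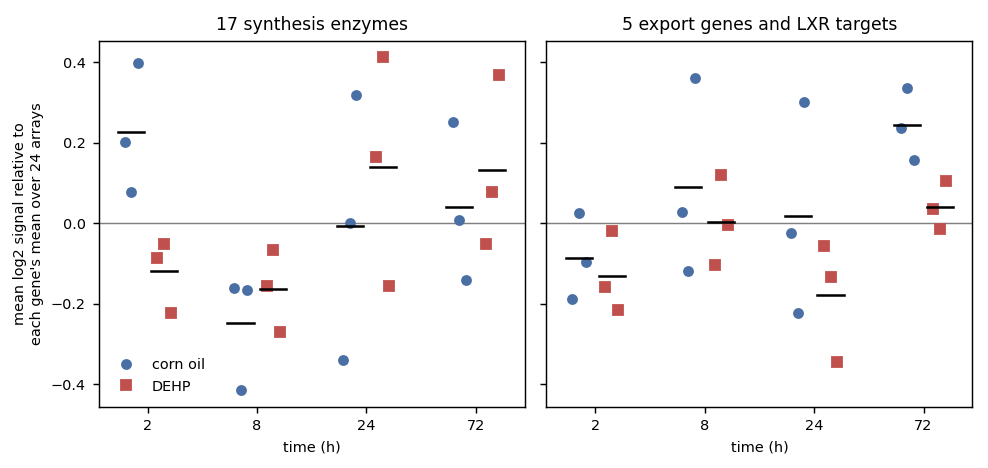
Mean log2 signal of 17 synthesis enzymes (left) and of 5 export genes and LXR targets (right) on each array, relative to each gene's mean over 24 arrays, against time; bars are group means of 3 arrays. The groups are apart for synthesis at 2 h and for export at 72 h, and the widest within-group spread for synthesis is at 24 h. Of single genes, 6.72% of all were apart with DEHP lower at 2 h and 18.1% at 72 h.

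Of 50 further genes of sterol and SREBP-related pathways in 6 lists, 2 were called at 2 h, 6 at 8 h, 0 at 24 h and 2 at 72 h, beside 0.83%, 4.13%, 0.297% and 4.18% of all genes; the 2 of 50 at 72 h are near that share. Nceh1, a hydrolase of cholesterol esters, was called at both early times: it rose by 1.01 at 2 h (SE 0.15, limma adjusted p = 0.000538) and by 1.20 at 8 h (SE 0.15, adjusted p = 2.8e-05). At 8 h it read 8.76, 9.06 and 9.17 in corn oil and 10.30, 10.14 and 10.16 under DEHP, without overlap. Lpcat3, a phospholipid-remodelling enzyme and LXR target, rose by 0.78 at 8 h (SE 0.14, adjusted p = 0.00119), from 10.45, 10.35 and 10.86 to 11.29, 11.40 and 11.33. At 72 h Pltp, a phospholipid transfer protein that is also an LXR target, rose by 1.37 (SE 0.26, adjusted p = 0.00538). It read 10.82, 10.97 and 10.34 in corn oil and 11.94, 12.12 and 12.18 under DEHP, without overlap. Cyp39a1, an oxysterol hydroxylase, fell by 1.59 at 72 h (SE 0.26, adjusted p = 0.00113), from 8.91, 9.21 and 9.10 to 7.59, 7.57 and 7.29. These calls of Nceh1, Lpcat3, Pltp and Cyp39a1 held in all 18 alternatives. Lpcat3 at 8 h and Pltp at 72 h were each the 1 call among 6 LXR targets outside the members. The median difference of those 6 was 0.04 at 8 h and 0.03 at 72 h, beside -0.02 and -0.03 over all genes.

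Targets of the SREBPs outside the cholesterol chain had a median difference of -0.99 at 2 h over 10 genes, 1 of them called, beside a median of -0.02 and 0.83% called over all genes. DEHP 2 h replicate 2 was the highest DEHP array for Acss2, Acly, Elovl6, Aacs, Ldhb, Me1 and Fasn, but not for Tmem97, Fads1 and Fads2. Acly read 11.29, 12.59 and 11.37 under DEHP against 13.23, 12.78 and 13.21 in corn oil. How far the median depends on single arrays was not tested. Acss2, which makes acetyl-CoA from acetate, read 12.04, 11.76 and 12.29 in corn oil and 10.01, 11.58 and 10.16 under DEHP and fell by 1.45 (SE 0.31, limma adjusted p = 0.0244). DEHP replicate 2 lay near the corn oil arrays, and the call was lost without corn oil 2 h replicate 1 or 3 (-1.44 and -1.32; adjusted p = 0.0998 and 0.140) and without DEHP 2 h replicate 1 or 3 (-1.16 and -1.24; adjusted p = 0.241 and 0.184). In the same list Acly, which supplies cytosolic acetyl-CoA from citrate, fell by 1.75 from 2 to 8 h in corn oil (adjusted p = 0.00366), beside Acss2 at -1.30 and the malic enzyme Me1 at -1.19, and the Acly call held without each of the 6 arrays. The Acss2 and Me1 calls were lost without corn oil 2 h replicate 1 (-1.30 and -1.19; adjusted p = 0.0701 and 0.0642), 2 h replicate 3 (-1.17 and -1.11; adjusted p = 0.0775 and 0.0647), 8 h replicate 1 (-1.13 and -0.98; adjusted p = 0.0809 and 0.0863) or 8 h replicate 2 (-1.33 and -1.21; adjusted p = 0.0562 and 0.0552).

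The other 4 calls at 8 h were 1 in each of 4 lists. Nploc4, a cofactor in the extraction of proteins from the endoplasmic reticulum, rose by 0.47 (limma adjusted p = 0.0127) and Fads2, a fatty acid desaturase, by 0.70 (adjusted p = 0.0492). Fnta, a subunit of farnesyltransferase, fell by 0.48 (adjusted p = 0.0289) and Hsd3b7, an enzyme of bile acid synthesis, by 0.39 (adjusted p = 0.0177). Without corn oil 8 h replicate 2, the array with the large Actb difference, none of the 4 passed: 0.35 for Nploc4, 0.47 for Fads2, -0.39 for Fnta and -0.39 for Hsd3b7 (adjusted p = 0.111, 0.286, 0.162 and 0.0643). Fads2 was also lost without corn oil 8 h replicate 1 (0.62, adjusted p = 0.154) and DEHP 8 h replicate 1 or 3 (0.65 and 0.64; adjusted p = 0.162 and 0.201). Fnta was also lost without corn oil 8 h replicate 1 (-0.45, adjusted p = 0.0845) and DEHP 8 h replicate 1 or 3 (-0.41 each; adjusted p = 0.142 and 0.172), and Hsd3b7 without corn oil 8 h replicate 3 (-0.35, adjusted p = 0.0813) and DEHP 8 h replicate 1 or 3 (-0.31 and -0.37; adjusted p = 0.134 and 0.0900).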

How the data were processed

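Per the submitters' processing notes, the authors computed the deposited log2 signals with RMA (background correction, quantile normalization and probe summary); its version is not given in the sources used here. RMA forces the 24 arrays to a like distribution, which can hide a shift shared by all genes. The deposited table held 45101 probe sets from 2.84 to 14.55, with array medians of 6.46 to 6.55. Of these, 34958 had 1 gene symbol in the platform annotation and 932 several, which were left out with 9211 unannotated ones.

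Each gene was read from its brightest probe set, giving 18194 genes. The fit was limma 3.58.1 in R 4.3.3 with 8 group means over 24 arrays (16 residual and 6.21 prior degrees of freedom), no pseudocount, and Benjamini-Hochberg adjustment over all genes. SE and 95% intervals are from this fit; the number of arrays limits their precision. The code was tested on simulated data.

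Arrays were grouped by the labels. Members and lists were chosen with earlier results of these data known, so no set test was made. Values on each array are given for members called at a time, for the largest difference in each role group at each time, and for 10 members chosen by name; a few others were added for their values. Promoters came from RefSeq on GRCm38.p6. The alternative fits listed in the closing section were set for the members, and the same fits were read for further pathway genes after seeing the data.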

Additional observations from a re-analysis of the deposited data

Results flagged for a closer look

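The DEHP difference of Insig2 changed between 2 and 72 h by -1.07 on the log2 scale (SE 0.26, limma adjusted p = 0.0291), from 0.59 to -0.48. The labels give the dose per day at 72 h only, so here and in the contrasts below time and repeated dosing cannot be told apart. The arrays of each group were 3, and leaving out corn oil 2 h replicate 1 or 3, DEHP 2 h replicate 1 or 3, corn oil 72 h replicate 2 or 3, or DEHP 72 h replicate 2 or 3 gave -1.0, -1.02, -1.02, -1.04, -0.89, -0.99, -1.08 and -0.94 with adjusted p from 0.0571 to 0.0963, past the threshold no longer. Between 8 and 72 h, a contrast added after the values were seen, the Insig2 difference changed by -1.50 (SE 0.26, adjusted p = 0.00307), from 1.01 to -0.48, and it passed in all 23 alternative fits. All DEHP arrays were higher for Lcat at 2 h, as for 4.67% of all genes, and all lower at 72 h, as for 18.1%. The DEHP difference of Lcat changed between these times by -0.55 (SE 0.13, limma adjusted p = 0.0251), from 0.26 to -0.29. It missed the threshold without corn oil 2 h replicate 1 or 3, DEHP 2 h replicate 1 or 3, corn oil 72 h replicate 1, or DEHP 72 h replicate 2 or 3, at -0.53, -0.54, -0.51, -0.51, -0.51, -0.54 and -0.55 with adjusted p from 0.0522 to 0.0826.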

How the results depend on the processing

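Counts of called members among 29, as printed in the report, moved by over 1.5 times under these alternatives. At 2 h the count of 0 became 1 with the replicate block, with replicate 1 against the rest as a block, over genes above the 40th percentile, without both arrays numbered 14 in their titles, and with 6 arrays alone. At 8 h the count of 1 became 2 with the mean of all probe sets, quantile normalization and 6 arrays alone. At 72 h the count of 1 became 0 with the mean of all probe sets, quantile normalization, median centring and the Actb covariate, 3 with array weights and 2 with 6 arrays alone. The test over any time gave 4 in place of 2 with array weights and with quantile normalization, and the test between times 2 in place of 1 without corn oil 8 h replicate 2 and 72 h replicate 1. In corn oil over all times the count of 7 became 1 with the Actb covariate, 4 without both arrays numbered 14 and 3 without the 2 arrays that stood apart; from 2 to 8 h the count of 9 became 2, 5 and 5. From 8 to 24 h in corn oil the count of 1 became 0 with the Actb covariate, 3 with quantile normalization, and 2 over genes above the 40th percentile, with the mean of probe sets, array weights, median centring and without either pair of arrays. Under DEHP from 2 to 8 h the count of 1 became 0 with the mean of probe sets, 3 with quantile normalization, and 2 over genes above the 40th percentile and with array weights; from 8 to 24 h the count of 4 became 8 with array weights and 2 without both arrays numbered 14. The cause was not tested. Leaving out 1 array at a time gave 0 to 3 at 2 h, 1 to 1 at 8 h, 0 to 0 at 24 h, 0 to 1 at 72 h, 1 to 5 at any time, 1 to 2 between times, 2 to 9 in corn oil over all times, 3 to 7 in corn oil from 2 to 8 h, 0 to 5 in corn oil from 8 to 24 h, 0 to 2 under DEHP from 2 to 8 h and 1 to 4 under DEHP from 8 to 24 h. Same-numbered arrays deviated with correlations of -0.351 to 0.144, so replicate numbers were not taken as pairs.

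Of 57 called values of members and pathway genes, 237 of 408 fits with 1 array left out and 545 of 639 others kept the call, and none changed sign. Of 114 values of members not called, 4 fits with 1 array left out and 12 others gave a call, and 84 and 55 changed sign without one. The number of arrays, 3 a group, limits the precision.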
